A study of Mus musculus with 2 samples.

Results

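The hedgehog pathway genes examined here were the ligand genes Shh, Ihh and Dhh, the receptor gene Ptch1, the transducer gene Smo, the transcription factor genes Gli1, Gli2 and Gli3, and the inhibitor gene Sufu. Their mRNAs were searched for Prrc2a binding by RIP-seq, which sequences the RNA pulled down by an antibody against a protein. The tissue was whole brain, taken from male C57BL/6J mice aged 4 weeks and of wild-type genotype, so no knockout or transgene was involved. A single condition was profiled in 2 replicates. The protocol describes 3 brains, but the labels do not say which brain went into which replicate. A member peak was any peak of either replicate that overlapped an exon of 1 of these 9 genes by at least 1 bp, with exons taken from GENCODE release M21. By this rule, the hedgehog genes held 28 of the 18129 peaks listed for replicate 1 and 35 of the 18671 listed for replicate 2, which makes 63 peaks in all.

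In hedgehog signalling, a secreted ligand (Shh, Ihh or Dhh) binds the membrane receptor Ptch1, which otherwise holds the membrane protein Smo inactive. Free Smo acts in the primary cilium, where Sufu keeps the zinc-finger factors Gli2 and Gli3 in check, and the outcome is set by the balance of Gli activators and Gli repressors. Gli1 and Ptch1 are themselves transcribed in response to the signal. In the brain, Shh is known for patterning the ventral neural tube and for its part in the origin of oligodendrocytes and in the growth of the cerebellum. Prrc2a is an RNA-binding protein described as a reader of N6-methyladenosine (m6A), a methyl mark on adenosines of mRNA that is most often found within the sequence GGAC.

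Each peak came with a chromosome, a start, an end and a fold enrichment, which the peak caller gives as a ratio, on a linear scale, of the pulled-down RNA to a control. The control library of this call is not stated, and no strand, false discovery rate or read count came with a peak. The sequencing depth is therefore unknown, and the absence of a peak in a gene may only mean that few of its reads were sequenced. Peaks overlapped an exon of any annotated gene in 12638 cases in replicate 1 and in 16553 cases in replicate 2. As a check of the tissue label, exonic peaks were sought in 32 marker genes. A peak found in both replicates was present in 3 of them (9.38%), against 12.0% of all protein-coding genes. These were the astrocyte gene Slc1a2, the oligodendrocyte lineage gene Olig2 and the microglial gene Csf1r. The shared peak of Slc1a2 had its midpoint in an exon of a non-coding transcript, and that of Csf1r had its midpoint outside the gene. Of 7 neuronal markers, none had a peak in both replicates, and Map2 and Gad2 had peaks in replicate 2 only. All 6 markers of other organs (liver, pancreas, heart, muscle, kidney and lung) lacked a peak in either list, and so did both endothelial markers. A peak list does not measure RNA abundance, so this check is a weak one.

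Coding sequences under hedgehog peaks found in both replicates are printed first, because the results turn on these places. Up to 3 windows are given per gene, from the most enriched pairs of overlapping peaks that had at least 100 coding bases in common. Each window is 90 bases of GRCm38 (mm10) sequence, written 5′ to 3′ on the strand of the mRNA, placed around the GGAC nearest to the centre of the stretch that both replicates covered. Capitals mark GGAC. The whole covered stretch of Ptch1 exon 22 held no GGAC, so its window is placed at the centre of that stretch.
Ptch1 exon 14, CDS, codons 681 to 711, chr13:63533341-63533430, minus strand: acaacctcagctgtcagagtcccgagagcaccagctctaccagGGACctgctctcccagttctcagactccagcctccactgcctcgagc
Ptch1 exon 23, CDS, codons 1357 to 1387, chr13:63511678-63511767, minus strand: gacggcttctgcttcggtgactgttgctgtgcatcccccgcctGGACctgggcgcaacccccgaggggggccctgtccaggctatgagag
Ptch1 exon 22, CDS, codons 1197 to 1227, chr13:63513643-63513732, minus strand: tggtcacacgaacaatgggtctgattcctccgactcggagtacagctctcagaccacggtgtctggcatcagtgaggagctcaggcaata
Smo exon 1, CDS, codons 39 to 69, chr6:29736126-29736215, plus strand: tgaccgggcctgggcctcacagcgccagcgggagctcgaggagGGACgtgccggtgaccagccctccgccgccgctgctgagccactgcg
Gli2 exon 14, CDS, codons 1094 to 1124, chr1:118837049-118837138, minus strand: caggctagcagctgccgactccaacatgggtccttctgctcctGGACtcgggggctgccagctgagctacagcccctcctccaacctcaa
Gli2 exon 14, CDS, codons 1293 to 1323, chr1:118836453-118836542, minus strand: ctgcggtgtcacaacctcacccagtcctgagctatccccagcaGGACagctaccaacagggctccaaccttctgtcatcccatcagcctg
Gli3 exon 3, CDS, codons 92 to 121, chr13:15548549-15548638, plus strand: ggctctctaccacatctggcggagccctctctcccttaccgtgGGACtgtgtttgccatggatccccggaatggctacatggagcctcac
Gli3 exon 14, CDS, codons 736 to 766, chr13:15723543-15723632, plus strand: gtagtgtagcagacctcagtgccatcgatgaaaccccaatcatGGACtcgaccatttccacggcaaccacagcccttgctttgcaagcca
Gli3 exon 15, CDS, codons 996 to 1025, chr13:15725015-15725104, plus strand: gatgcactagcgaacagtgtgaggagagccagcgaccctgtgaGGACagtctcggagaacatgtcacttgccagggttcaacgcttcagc
These windows hold 1 GGAC each, apart from Ptch1 exon 22. In Gli3, exon 3 lies before the stretch that encodes the DNA-binding zinc fingers, and exons 14 and 15 lie behind it. In the 3′ UTR, 5 GGAC of Ptch1 and 3 of Gli3 lay under peaks of both replicates, and the 4 of these that were followed by T are given with 10 bases on either side.
Ptch1 exon 23, 3′ UTR, chr13:63510323-63510346, minus strand: ctattctctgGGACtattcaagag
Ptch1 exon 23, 3′ UTR, chr13:63509890-63509913, minus strand: gagtttctaaGGACtcttttccac
Ptch1 exon 23, 3′ UTR, chr13:63508799-63508822, minus strand: tttacattaaGGACtcatggtagg
Gli3 exon 15, 3′ UTR, chr13:15729594-15729617, plus strand: agtgaacacaGGACtgtggcagtc
No m6A data were analysed here, so none of these adenosines is known from these lists to be methylated.

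Prrc2a peaks lay on the mRNAs of the receptor Ptch1, the transducer Smo and the factors Gli2 and Gli3 in both replicates, and no exonic peak was listed for any ligand gene or for Gli1. A replicate 1 peak was called shared if it had at least 1 bp in common with any replicate 2 peak. Ptch1, Smo, Gli2 and Gli3 had at least 1 shared exonic peak, which is 4 of the 9 genes, against 12.0% of all 21951 protein-coding genes. Sufu had exonic peaks in both lists at different places, and Shh, Ihh, Dhh and Gli1 had none in either list. An exonic peak was present in 5 of the 9 genes in replicate 1 and in the same 5 genes in replicate 2, against 16.5% and 21.0% of all protein-coding genes. The genes with exonic peaks in both lists, whether or not these overlapped, made up 13.5% of all protein-coding genes. Whole brain is a mixture of cells, so a gene used by few cells and a gene with little RNA in each cell could not be told apart.

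Longer genes had shared peaks more often, and the hedgehog genes with peaks were among the long ones. All protein-coding genes were therefore ranked by exonic length and split into 5 classes of nearly equal size. In the longest class, above 6511 exonic bp, 32.1% of genes had a shared peak, and of the 4 hedgehog genes in it Ptch1, Gli2 and Gli3 had one and Sufu did not. In the next class, 15.6% of genes had a shared peak, and of its 3 hedgehog genes Smo had one while Dhh and Gli1 did not. Ihh fell in a class where 7.38% of genes had one, and Shh in a class where 3.08% had one. The count of 3 of 4 in the longest class was above the share of all genes in that class. That class is wide, however: 97.7% of all protein-coding genes are shorter than Ptch1 and 92.1% are shorter than Gli3. The absence of shared peaks in Shh, Ihh, Dhh and Gli1 was what most genes of their classes showed. The 9 genes were chosen with earlier results of these data known, and no test of these counts was made.

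Of the member peaks, 18 of 28 in replicate 1 were shared, and 18 of 35 in replicate 2 overlapped a replicate 1 peak. The other 10 and 17 peaks were found in 1 replicate only. The shared peaks made up 64.3% and 51.4% of the member peaks, near the 59.95% and 48.3% of all exonic peaks in replicates 1 and 2. Most of the peak bases were exonic, 73.0% in replicate 1 and 71.4% in replicate 2, the rest being the flanking intron or, for Gli3, sequence upstream of the gene. The map of peaks along the spliced mRNAs shows how the replicates were placed against each other in the 5 genes with peaks.

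**Figure D1:**
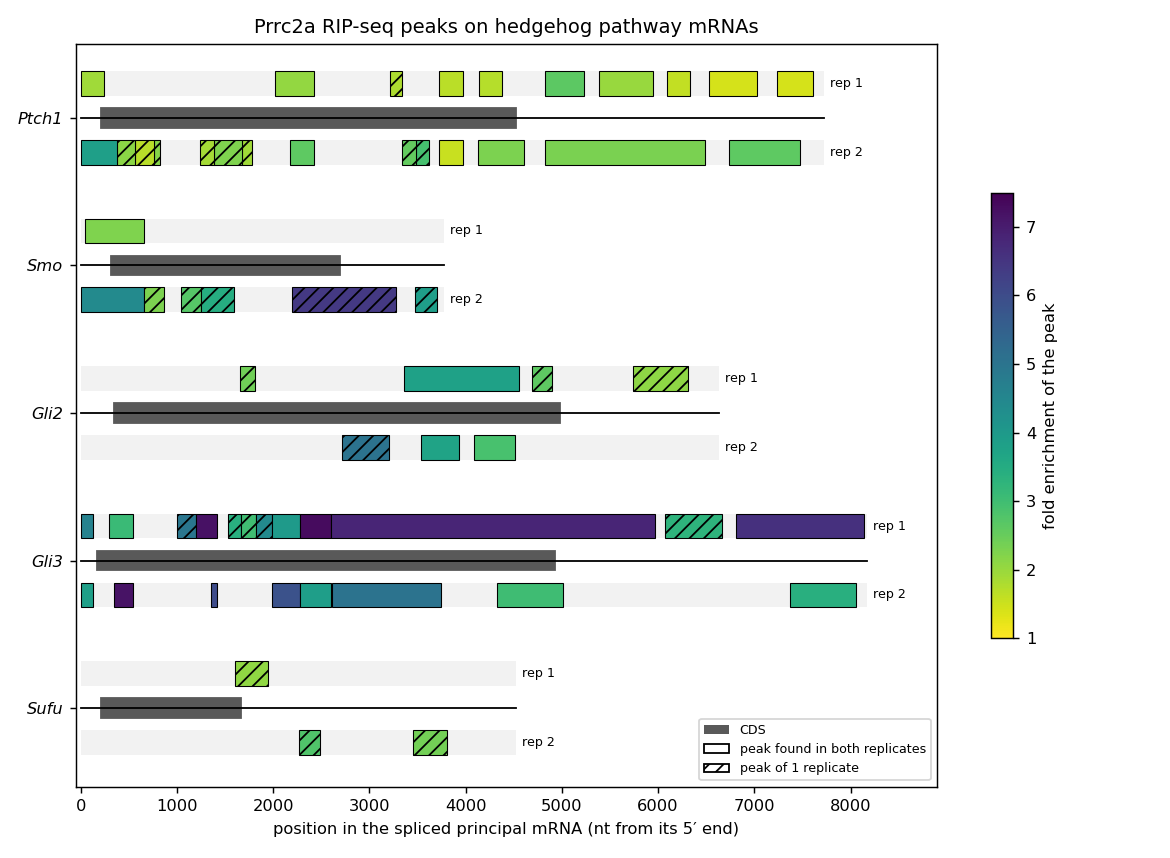
Prrc2a peaks along the principal mRNA of the 5 hedgehog genes with exonic peaks. The horizontal axis is the position in nt from the 5′ end, the dark box is the CDS, boxes above and below are peaks of replicates 1 and 2 coloured by fold enrichment, and hatched peaks were found in 1 replicate only. Gli3 is covered almost throughout in replicate 1, Smo mostly in replicate 2, and Sufu has hatched peaks only.

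The 3 ligand genes encode secreted proteins that start the signal. Shh (ENSMUSG00000002633, chr5:28456815-28467256, minus strand) has 3 exons and an mRNA of 2847 nt, and no exonic peak was listed. Ihh (ENSMUSG00000006538, chr1:74945315-74951672, minus strand) and Dhh (ENSMUSG00000023000, chr15:98891152-98898540, minus strand) also have 3 exons each and had no peak. Their mRNAs are not short of the motif: GGAC occurs 12 times in Shh, 14 times in Ihh and 19 times in Dhh. The only peak within the span of a ligand gene lay in intron 1 of Shh, at chr5:28465112-28465361. It spanned 250 bp, had a fold enrichment of 4.22 in replicate 1, above 78.2% of the peaks of that replicate, and had no counterpart in replicate 2. An intronic peak does not count as a member peak.

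Ptch1 (ENSMUSG00000021466, chr13:63508328-63573598, minus strand), the receptor that restrains Smo, had the most peaks of the hedgehog genes over both lists together (25, against 21 in Gli3) and the lowest median fold enrichment in each replicate. In replicate 1 alone, Gli3 had more. Replicate 1 had 10 exonic peaks, with fold enrichments from 1.41 to 2.64 and a median of 1.76, and replicate 2 had 15, from 1.54 to 3.85 with a median of 2.29. Of the replicate 1 peaks, 9 were shared, a number reached by 104 of all protein-coding genes (0.474%). However, 97.7% of genes have fewer exonic bases than the 14185 of Ptch1. Counted from replicate 2, 6 of the 15 peaks were shared, as several replicate 1 peaks fell on the same wide replicate 2 peak. Many peaks with a low median fold enrichment were thus its pattern in both replicates. They touched 5 of its 23 exons in replicate 1 and 13 in replicate 2.

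In the 7725-nt Ptch1 mRNA, shared coverage lay at both ends. The first exon had a peak of 1.92-fold in replicate 1 (chr13:63565490-63566233) and of 3.85-fold in replicate 2 (chr13:63565280-63566218), and both covered the whole 5′ UTR and the start codon. Their mean was 2.89 ± 1.37 (SD, n = 2), the widest difference of any Ptch1 pair. In the 3′ UTR, 5 replicate 1 peaks between 1.41-fold and 2.64-fold overlapped 2 wide replicate 2 peaks of 2.32-fold and 2.60-fold. The wider of these, at chr13:63509571-63511226, ran over 1656 nt without a break.

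Between the ends, 3 shared peaks lay in the CDS. In exon 14, where the first sequence above is taken from, the fold enrichment was 2.04 in replicate 1 and 2.62 in replicate 2. In exon 22, whose window holds no GGAC, it was 1.67 and 1.54, and in exon 23 it was 1.72 and 2.29. Replicate 2 alone had peaks over exons 2, 3, 4, 8, 9, 10, 11, 19 and 20, and over an exon of a non-coding Ptch1 transcript, whereas a peak over exon 18 was found in replicate 1 alone. Peaks of replicate 1 touched 5 of the 23 exons of the principal transcript and those of replicate 2 touched 13, with 4 in common. The CDS therefore carried most of the difference between the replicates: 24.4% of it was covered in replicate 1 and 54.0% in replicate 2, against 64.4% and 77.3% of the 3′ UTR.

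Smo (ENSMUSG00000001761, chr6:29735503-29761365, plus strand) encodes the membrane protein that carries the signal onward once Ptch1 is bound. It had 1 exonic peak in replicate 1 and 6 in replicate 2. The shared peak covered exon 1 with the start codon, at 2.26-fold in replicate 1 (chr6:29735741-29736379) and 4.41-fold in replicate 2 (chr6:29735547-29736479), a mean of 3.33 ± 1.52 (SD, n = 2). The replicate 1 peak lay wholly inside that of replicate 2 and held 5 GGAC. Beyond exon 1, the replicates had nothing in common.

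The 5 other Smo peaks came from replicate 2. They lay over exon 2 (2.28-fold), exons 3 and 4 (2.70-fold), exons 5 and 6 (3.48-fold), exons 11 and 12 (6.42-fold) and the 3′ UTR (3.89-fold). The peak at chr6:29759548-29760867 covered the stop codon and had the highest fold enrichment of Smo, above 97.4% of all replicate 2 peaks. No peak of replicate 1 lay there. Peaks covered 16.2% of the 3779-nt mRNA in replicate 1 and 72.4% in replicate 2, a mean of 44.3% ± 39.7 (SD, n = 2), and 0% and 75.3% of the 3′ UTR. This was the widest gap between the replicates among the hedgehog genes.

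Gli3 (ENSMUSG00000021318, chr13:15463235-15730026, plus strand), the main source of Gli repressor, carried the strongest peaks. Replicate 1 had 12 exonic peaks, with fold enrichments from 2.998 to 7.31 and a median of 4.53, and replicate 2 had 9, from 3.01 to 7.18 with a median of 5.02. The lowest Gli3 peak in either replicate was above the highest Ptch1 peak of replicate 1. Within replicate 2 the genes overlapped, as the highest Ptch1 peak (3.85-fold) was above the lowest Gli3 peak (3.01-fold). All 9 replicate 2 peaks overlapped a replicate 1 peak, and 7 replicate 1 peaks were shared, a number reached by 219 of all protein-coding genes (0.998%). For a ranking of genes, each shared replicate 1 peak was paired with the replicate 2 peak it overlapped most. By the highest mean fold enrichment of such a pair, 113 of the 2629 genes with a shared peak (4.30%) were at or above Gli3. The counts were 917 for Smo, 920 for Gli2 and 1280 for Ptch1. For Gli2, the pair with the larger overlap (mean 3.33) was not its stronger pair (mean 3.75).

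The strongest shared Gli3 peak by mean overlapped exon 8. It reached 7.20-fold in replicate 1 and 6.02-fold in replicate 2, a mean of 6.61 ± 0.833 (SD, n = 2). Much of it lay in the flanking intron: 214 of its 459 bp were exonic in replicate 1 and 59 of 205 bp in replicate 2. The rank of Gli3 by its strongest shared peak rests on this pair. In exon 15, the last and longest exon, a peak of 6.83-fold in replicate 1 (chr13:15724370-15727821) ran from codon 811 over the stop codon into the 3′ UTR. Replicate 2 split this stretch into a peak of 5.02-fold (chr13:15724465-15725600) and one of 3.01-fold over the stop codon (chr13:15726185-15726869). Both replicates thus reached the coding part of the exon and the stop codon, with a gap between the peaks in replicate 2.

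The order of the Gli3 peaks differed between the replicates. Exon 3 was the lowest shared peak of replicate 1 at 3.10-fold and the highest of replicate 2 at 7.18-fold, a mean of 5.14 ± 2.88 (SD, n = 2). Exon 14 was the highest of replicate 1 at 7.31-fold and stood at 3.87-fold in replicate 2, and the 3′ UTR peak at chr13:15728661-15729991 had 6.59-fold against 3.39-fold. Exon 13 had 3.98-fold and 5.85-fold. A ranking of sites within Gli3 was therefore within the spread of the replicates, whereas the high level of the gene as a whole was present in both.

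Peaks covered 87.5% of the 8170-nt Gli3 mRNA in replicate 1 and 42.9% in replicate 2, a mean of 65.2% ± 31.5 (SD, n = 2). Every one of the 3507 nt covered in replicate 2 was also covered in replicate 1. The longest unbroken stretch was 4436 nt in replicate 1, from nt 1530 to nt 5965, and 1136 nt in replicate 2, from nt 2609 to nt 3744. Replicate 1 alone had peaks over exons 7, 10, 11 and 12 and in the 3′ UTR, with fold enrichments from 2.998 to 4.94. The zinc fingers were among these: of 4 stretches of the Gli3 protein that match the pattern of a C2H2 finger, all were under peaks in replicate 1, and the last one, codons 609 to 632, was under a peak in replicate 2. The array is known to hold a further finger that the pattern did not match.

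The first Gli3 peak needs a caveat of strand. In replicate 1 it spanned chr13:15461410-15464353 at 4.63-fold, with 1825 of its 2944 bp upstream of the gene. In replicate 2, peaks of 6.89-fold (chr13:15462369-15463440) and 3.86-fold (chr13:15463600-15464317) lay within it. Exons of Gm6556 (ENSMUSG00000097806, chr13:15440302-15463736), a non-coding transcript on the minus strand, lie under all 3 peaks. The lists hold no strand, so RNA of Gli3 and of Gm6556 cannot be told apart there, and without peaks over exons of another gene the hedgehog genes had 17 shared peaks.

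Gli2 (ENSMUSG00000048402, chr1:118834132-119053619, minus strand), the main Gli activator, had 4 exonic peaks in replicate 1 (2.11-fold to 3.77-fold) and 3 in replicate 2 (2.89-fold to 5.02-fold). Its single shared peak lay in the CDS of exon 14, the last exon. There, the replicate 1 peak of 3.77-fold (chr1:118836220-118837406) overlapped replicate 2 peaks of 2.89-fold (chr1:118836252-118836684) and 3.73-fold (chr1:118836840-118837231), both of which lay wholly inside it. The pair means were 3.33 ± 0.627 and 3.75 ± 0.0314 (SD, n = 2 each), the latter being the closest pair of values among the hedgehog genes.

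The other Gli2 peaks were found in 1 replicate each. Replicate 1 alone had peaks in the 3′ UTR (2.11-fold), at the end of the CDS (2.60-fold, chr1:118835871-118836084) and over exon 10 (2.41-fold). The strongest Gli2 peak, 5.02-fold at chr1:118837567-118838056 in exon 14, was in replicate 2 alone. The shared stretches fall in codons 1063 to 1194 and 1246 to 1390 of 1544, in the part of Gli2 behind the zinc fingers. Only 18 of the 72 bases of the first finger-like stretch and 6 of the 69 of the next were under a replicate 1 peak, and none under a replicate 2 peak.

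Gli1 (ENSMUSG00000025407, chr10:127329882-127341974, minus strand), a transcriptional target and amplifier of the pathway, had no exonic peak in either replicate. Its mRNA of 4057 nt holds 23 GGAC, 21 of them in the CDS, and encodes 4 finger-like stretches. The 3 Gli genes, which are related in sequence, thus differed in the lists from no peak in Gli1 to 21 peaks in Gli3 over both replicates. Whether Gli1 RNA was present in these brains in an amount that could give a peak was not tested.

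Sufu (ENSMUSG00000025231, chr19:46396896-46488804, plus strand), the cytoplasmic inhibitor of the Gli factors, had 1 peak in replicate 1 and 2 in replicate 2, all in exon 12 and none shared. The replicate 1 peak covered the stop codon at 2.08-fold (chr19:46485888-46486224) and held no GGAC. The replicate 2 peaks lay farther along the 3′ UTR, at 2.78-fold (chr19:46486549-46486764) with 5 GGAC and at 2.40-fold (chr19:46487734-46488091) with 2. Exon 12 was thus reached in both replicates without a base in common, and 7.45% and 12.7% of the mRNA was covered.

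**Figure D2:**
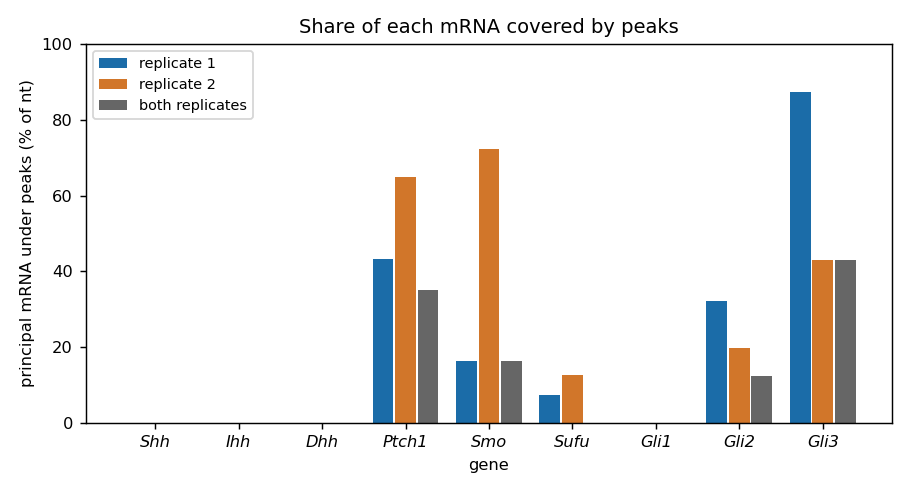
Share of the principal mRNA, in percent of its nt, that lay under peaks of replicate 1, of replicate 2 and of both, for each of the 9 hedgehog genes. Bars for both replicates reach 42.9% in Gli3, 35.1% in Ptch1, 16.2% in Smo and 12.4% in Gli2, and the ligand genes and Gli1 stand at 0.

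Over both replicates, the coverage held in common ordered the genes as Gli3 (42.9%), Ptch1 (35.1%), Smo (16.2%) and Gli2 (12.4%). Counted over all annotated exonic bases of a gene, the shares in common were 41.1% in Gli3, 19.1% in Ptch1, 12.0% in Gli2 and 11.4% in Smo, while the median of all genes with a shared peak was 11.4%. Gli2 and Smo were thus near that median, and 341 genes were covered at least as much as Gli3. In the 4 genes together, both replicates covered 58.5% of the 5′ UTR, 28.3% of the CDS and 27.1% of the 3′ UTR. The 5′ UTR value rests on 1054 nt in all, with 0% covered in Gli2. In Gli3 it lay under peaks that also covered exons of Gm6556. These shares were not compared with those of all genes.

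The fold enrichments of single peaks were compared with all exonic peaks of protein-coding genes. In replicate 1 the 28 member peaks ran from 1.41 to 7.31 with a median of 2.62, and 16 of them were above the median of 2.35 over 11934 peaks. In replicate 2 the 35 member peaks ran from 1.54 to 7.18 with a median of 2.89, and 24 were above the median of 2.50 over 16084 peaks. The members as a list thus lay a little above the middle, and the plot by gene shows that Gli3 held the upper end and Ptch1 the lower.

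**Figure D3:**
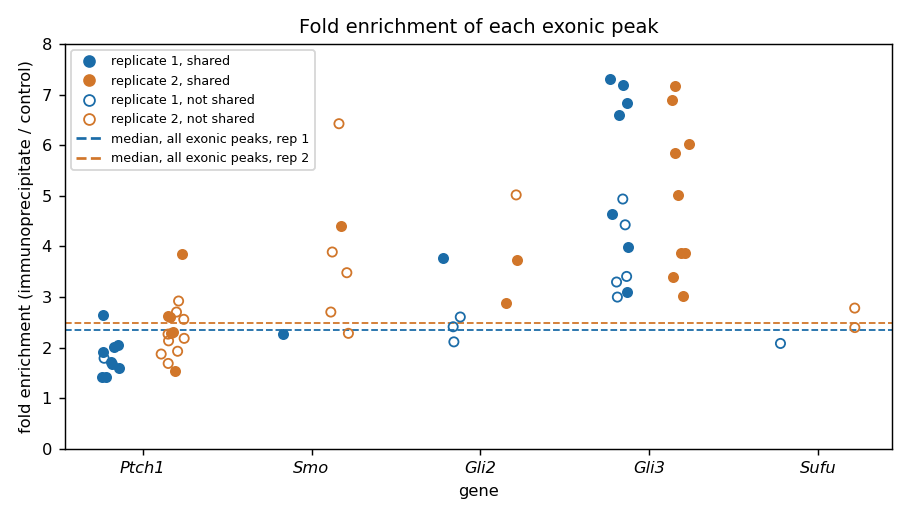
Fold enrichment of every exonic peak of the hedgehog genes, by gene and replicate, on a linear axis, with filled points for peaks found in both replicates and open points for the others. Dashed lines are the medians of all exonic peaks of protein-coding genes (2.35 in replicate 1 and 2.50 in replicate 2), and all Gli3 points lie above both lines.

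For the 18 shared peaks, each replicate 1 peak was paired with the replicate 2 peak it overlapped most. Their median fold enrichment was 2.45 in replicate 1 and 3.14 in replicate 2, against 2.27 and 2.81 for all 7317 exonic shared peaks of protein-coding genes. The log2 ratio of replicate 1 over replicate 2 was -0.39 at the median of the 18 peaks (SD across peaks 0.66), against -0.26 (SD 0.52) for all. Replicate 1 was higher in 7 of the 18 pairs, against 2100 of all 7317. The 7 pairs were 2 of Ptch1, 1 of Gli2 and 4 of Gli3.

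**Figure D4:**
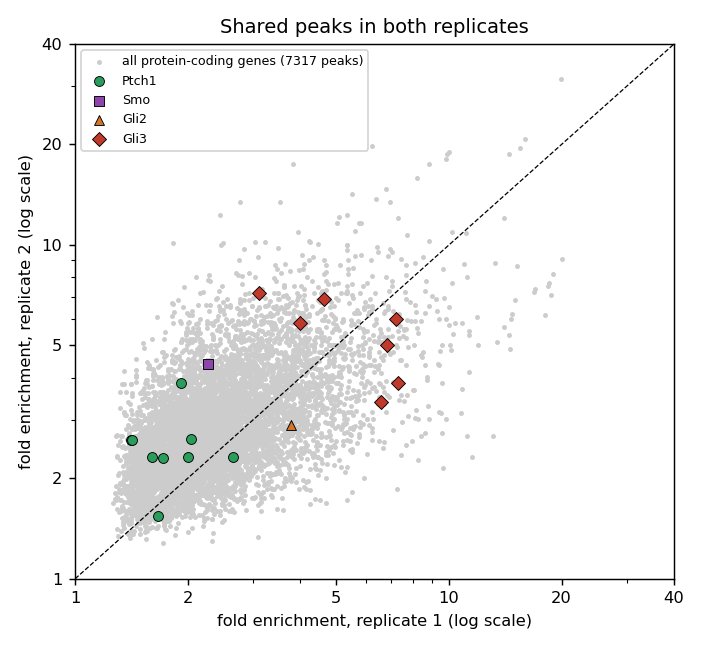
Fold enrichment of shared peaks in replicate 1 (horizontal, log scale) and replicate 2 (vertical, log scale), with the 18 hedgehog peaks marked by gene over all 7317 shared exonic peaks in grey. The dashed line marks equal values, and the 7 Gli3 peaks lie apart from the 9 of Ptch1, on both sides of the line.

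Placed by their midpoints, 10 of the 18 shared peaks fell in CDS (55.6%) and 6 in 3′ UTR (33.3%), against 50.7% and 30.4% of all shared exonic peaks of protein-coding genes. No midpoint lay in a 5′ UTR, where 11.5% of all such peaks had theirs. This count hides the 5′ ends: the first-exon peak of Ptch1 had its midpoint in the intron, that of Gli3 had its midpoint upstream of the gene, and that of Smo had its midpoint in the CDS, although all 3 covered 5′ UTR bases. In the single lists, 17 of 28 peaks of replicate 1 and 21 of 35 of replicate 2 had their midpoint in CDS.

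GGAC was counted on the strand of the gene in the exonic bases of each peak. At least 1 GGAC was present in 16 of the 18 shared peaks (88.9%), against 77.9% of all shared exonic peaks, whose exonic bases had a median of 376 bp against 387.5 bp for the hedgehog genes. Within 50 bp of the midpoint the share was 33.3%, against 34.7% of all, and for the longer GGACT it was 55.6%, against 43.0%. The 2 peaks without any GGAC were both of Ptch1, that in exon 22 and 1 in the 3′ UTR. Density gave less of a difference, with 4.84 GGAC per kb in the hedgehog peaks and 4.64 in all. Within the 4 mRNAs themselves, bases under peaks of both replicates held 4.83 GGAC per kb and bases outside any peak held 5.26, and the direction differed between regions. In CDS the values were 5.50 under both and 6.41 outside, in 3′ UTR 3.21 and 1.99, and in 5′ UTR 6.48 and 5.13. The UTR values rest on few motifs: under both lay 25 GGAC in CDS, 8 in 3′ UTR and 4 in 5′ UTR. The genes differed in count and in coverage. Under peaks of both replicates, Gli3 had 15 of its 33 GGAC, Ptch1 11 of 47, Gli2 6 of 32 and Smo 5 of 20. Such peaks covered 42.9% of the Gli3 mRNA, 35.1% of Ptch1, 12.4% of Gli2 and 16.2% of Smo. Replicate 1 peaks held 31 of the 33 GGAC of Gli3 and covered 87.5% of its mRNA.

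The other genes of the pathway were taken from a list of 51, and shared peaks were found in 12 of them (23.5%), against 12.0% of all protein-coding genes. This list is also long: 22 of the 51 genes fell in the longest class, 7 of which had a shared peak, beside 32.1% of all genes there. Of 15 genes in the next class 1 had one, and of 9 in the middle class 4 had one, beside 15.6% and 7.38% of all genes. Peaks of replicate 1 lay in exons of 19 of the 51 genes and peaks of replicate 2 in 25, beside 16.5% and 21.0% of all protein-coding genes.

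At the cell surface, 3 of 6 ligand-binding genes had a shared peak, beside 12.0% of all genes. In the longest class, where 32.1% of all genes had one, it was 2 of 3. Cdon, a co-receptor for Shh, had 9 exonic peaks in each replicate and 6 shared ones, of which the strongest lay in the CDS at 6.03-fold in replicate 1 and 2.36-fold in replicate 2. Hhip, a decoy receptor, had 1 shared peak at 2.93-fold and 4.39-fold, and Gas1, a membrane-anchored co-receptor, had 1 at 2.77-fold and 2.10-fold. The co-receptor gene Boc had 2 peaks in replicate 2 alone, and Lrp2, the longest of the group, had none.

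Among genes transcribed in response to Gli factors, 4 of 8 had a shared peak, beside 12.0% of all genes, and 2 of these 4 (Ccnd2 and Bcl2) were in the longest class. The strongest were in Bcl2, a gene of cell survival, at 4.69-fold and 8.28-fold in replicates 1 and 2, and in Nkx2-2, a ventral patterning factor, at 5.13-fold and 5.31-fold. Ccnd2, a cyclin of the cell cycle, reached 3.35-fold and 5.76-fold, and Mycn, a growth-promoting transcription factor, reached 4.40-fold and 2.50-fold. The Nkx2-2 peak had its midpoint in an exon of a non-coding transcript of the gene, so it may not lie on the coding mRNA.

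Inside the cell, 4 of 22 genes of the cilium and of Gli control had a shared peak and 0 of 9 genes acting beside Smo had one, beside 12.0% of all genes. No test of these counts was made, and 9 and 4 of the genes, respectively, were in the longest class. Gpr161, a ciliary receptor that holds the pathway off, had 6 shared peaks, the strongest at 3.89-fold and 3.10-fold, and the kinase gene Dyrk2 had 3, the strongest at 2.89-fold and 4.53-fold. Of 6 genes for ligand release, Scube1, which helps to release the lipid-bearing ligand, had shared peaks, the strongest at 2.35-fold and 3.28-fold. Several peaks of 1 replicate could stand without a shared peak, as in the ciliary kinesin gene Kif7 with 4 in replicate 1 and 0 in replicate 2.

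**Figure D5:**
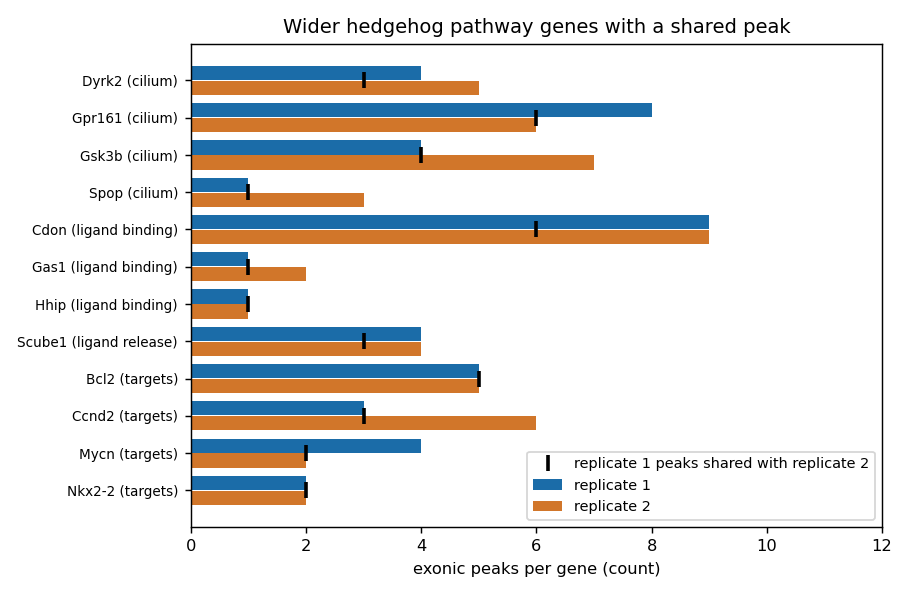
Number of exonic peaks in replicate 1 and replicate 2 for the 12 genes of the wider list with a shared peak, grouped by role, with a black mark at the number of replicate 1 peaks shared with replicate 2. The genes belong to the cilium and Gli control, ligand-binding, ligand-release and target groups, and Cdon and Gpr161 have the most shared peaks, 6 each.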

How the data were processed

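Prrc2a RIP-seq of wild-type mouse whole brain was analysed from 1 peak list per replicate. Per the submitters' processing notes, the authors aligned reads to mm10 with TopHat2 2.0.9 and called peaks with MACS2 2.0.10. The published methods name other versions of both, trimming of adaptors, a filter for uniquely mapped reads and a threshold on the false discovery rate. Replicates were called separately. The values the authors deposited are peak positions, counted from 1 at both ends, and a fold enrichment, which is a linear ratio and neither a count nor an expression level. A control with few reads raises the ratio. The depth is unknown, so no counting error could be given, and the spread of the 2 replicates (SD) was used.

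From these lists, peaks were intersected with the exons of every transcript in GENCODE release M21. A peak counted for each gene whose exon it overlapped by at least 1 bp, and a replicate 1 peak was shared when it overlapped a replicate 2 peak by at least 1 bp. Peaks were projected on the principal transcript of each gene, whose sequence, read from GRCm38, was the same as that of GENCODE for all 9 genes. GGAC was searched on the strand of the gene, and zinc fingers by the C2H2 spacing pattern in the translated CDS. The background was all 21951 protein-coding genes. No test compared groups, since there was 1 condition, and no test was made of lists. All steps ran in Python 3.11.15 with numpy 2.4.6, pandas 2.3.3, pysam 0.24.0 and samtools 1.23.1, with figures from matplotlib 3.10.9, and the overlap code was first tested on simulated data, 200 peaks of known position.

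All 9 members were named with every exonic peak, and from the wider list the 10 genes with the largest mean fold enrichment in a shared peak and the ligand-binding genes, of which 1 is not reported here. Kif7 was named after its values were seen. The members and lists were chosen with earlier results of these data known. The alternatives were a larger overlap, a minimum fold enrichment, replicate 2 peaks counted, each replicate alone, protein-coding transcripts only, 1 gene per peak, whole gene spans, the region with the most bases, and another motif or window.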

Additional observations from a re-analysis of the deposited data

How the results depend on the processing

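Of 50 alternative values, 25 stayed within the spread of the replicates or within 1.5 times the count, and 25 did not. For shares and medians, that spread was the SD of the values from each replicate alone, over all its exonic peaks. It was narrow for the share in CDS (SD 0.505), where the main value of 55.6% lay below both single-replicate values. Medians of shared peaks here are of the mean fold enrichment of the paired peaks, with a main value of 3.11. The strictest choice, at least 4-fold enrichment required of both peaks, left 3 shared peaks in 1 gene, Gli3, and 2 genes of the wider list, with 66.7% of the peaks in CDS, a median fold enrichment of 5.92 and 100% with GGAC. With at least 50% of both peaks overlapping, 8 of the 18 shared peaks were left in 3 genes, Gli2 being lost, with 75.0% in CDS and a median of 4.13. With replicate 2 peaks counted, 61.1% lay in CDS and the median was 4.00, and with 1 gene per peak these values were 58.8% and 2.89. With each replicate left out in turn, all exonic peaks of the other were counted. This gave 28 to 35 peaks, 60.0% to 60.7% in CDS and 75.0% to 80.0% with GGAC. Their median of 2.62 to 2.89 is of single peaks, not of pairs. Peaks lay in 19 to 25 genes of the wider list, and Sufu joined the genes with a peak in either case. The share with GGAC was 55.6% for GGACT and 33.3% within 50 bp of the midpoint. Leaving out peaks over exons of another gene, an alternative chosen after seeing the data, gave 17 peaks in 4 genes. No paired analysis was possible because there was 1 group. Depth limits every absence: a gene without a peak may have had too few reads.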
